A study of Glycine max with 12 samples.

Results

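NADH glutamate synthase was followed in soybean (Glycine max cv. Nourin No. 2) roots and nodules through 4 probesets of an oligonucleotide array, CO982658.1_507, CA783200.1_620, CX702963.1_699 and AW102262.1_240, out of 42748 probesets that are not controls. They were found in the array files by probe name, and were chosen because their descriptions name this enzyme. All plants were inoculated with Bradyrhizobium diazoefficiens USDA110, moved to hydroponic culture 5 days after planting and kept on nitrogen-free solution. From 19 days after planting, they received either 5 mM nitrate or the nitrogen-free control solution for 24 h. The root samples were the lower part of the root system, which bore no visible nodules, and the nodule samples were nodules of more than 3 mm in diameter from the upper part of the root systems. The 4 groups were thus roots and nodules, each with the control solution or with nitrate. Every group had 3 arrays, 12 in all, and each array carried RNA pooled from 3 plants. Nothing in the labels ties a root sample to a nodule sample of the same plants.

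Glutamate synthase (GOGAT) moves the amide nitrogen of glutamine to 2-oxoglutarate and so makes glutamate. Together with glutamine synthetase, which joins ammonium to glutamate, it forms the cycle by which plants bring ammonium into amino acids. The ammonium comes from nitrate, by way of nitrate and nitrite reductase, or in nodules from the nitrogen fixed by the bacteroids. Plants have a ferredoxin-dependent enzyme, known mainly from leaves, and an NADH-dependent enzyme of plastids in roots and nodules. In alfalfa, the NADH enzyme is known to be abundant in effective nodules.

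The probesets CO982658.1_507, CA783200.1_620 and CX702963.1_699 carry the description of a common bean (Phaseolus vulgaris) NADH glutamate synthase precursor, a nuclear gene for a chloroplast product. AW102262.1_240 is described by its similarity to the alfalfa (Medicago sativa) NADH glutamate synthase precursor. The descriptions come only from the study's lists of probesets that changed over 2-fold on these same arrays, of which 2964 probesets were read, so a probeset for this enzyme that did not change would carry no description here. In those lists, CO982658.1_507 stood among the probesets raised in roots, AW102262.1_240 among those raised in nodules, and CA783200.1_620 and CX702963.1_699 in both. Its listed direction in an organ is therefore not independent evidence for a probeset. The lists did not use the root change of AW102262.1_240 or the nodule change of CO982658.1_507. They did not compare the organs, but the difference of the nitrate effect between organs includes the listed changes and is not independent of them. Whether the 4 probesets report 1 gene or several, and where they lie in the genome, was not analysed here. Levels of different probesets were not compared, because the signal of a probe also depends on its sequence.

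The values are background-adjusted signals, scaled so that each array averaged 2500 over the probesets. Between 79.2% and 84.5% of the probesets of an array were well above background by the scanner software's own mark, no spot was saturated, and the scale factors ran from 0.545 to 0.922. The control root array 2 was the dimmest, its scaled 75th percentile being 1144, while that of the remaining arrays ran from 1401 to 1587. The arrays lay on 3 slides. The first held control root 1 and all nitrate-treated roots, the second held control roots 2 and 3 with nitrate-treated nodules 1 and 2, and the third held the control nodules and nitrate-treated nodule 3. Of 10 probesets described by a root hair library or as a root-specific chalcone synthase, 9 were higher in control roots than in control nodules and 1 was higher in nodules. Of 2 described as nodulins, Nodulin-21 was higher in nodules and early nodulin 40 was higher in roots, and leghemoglobin and uricase were not among the descriptions read, so the nodule label rests here on few markers.

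In control roots, CO982658.1_507 gave scaled signals of 4.26, 2.22 and 4.71, and none of these was well above background. In nitrate-treated roots it gave 56.6, 30.9 and 36.0, all well above background. The root groups were far apart, and the root values under nitrate overlapped those of nodules under nitrate. Control nodules gave 19.5, 24.0 and 24.5, whereas nodules treated with nitrate gave 31.4, 35.3 and 36.4. All nitrate-treated nodules were above all control nodules, and this order was the same in both organs.

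CA783200.1_620 was well above background on all 12 arrays. Its scaled signals were 268, 166 and 151 in control roots and 3887, 2478 and 2644 in nitrate-treated roots. Control nodules gave 598, 704 and 909.9, and nodules under nitrate gave 1205, 1519.8 and 1619.9. The 4 groups did not overlap: control roots were lowest and nitrate-treated roots highest, and the nodules lay between, with those under nitrate above the controls.

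CX702963.1_699 was also well above background on every array. The scaled signals were 9252, 8056 and 6392 in control roots, and 40583, 30077 and 26964 in nitrate-treated roots. For nodules they were 8231, 7728 and 9028 without nitrate and 15419.9, 18199 and 19159.8 with it. Control roots and control nodules overlapped here, unlike for the other probesets, and the nitrate-treated roots were the highest group.

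AW102262.1_240 gave 1.93, 2.09 and 1.72 in control roots, not well above background on any array and about as large as the scanner's error for these spots of 1.92, 2.08 and 1.72. The probeset was thus not detectable in roots without nitrate. In nitrate-treated roots it gave 65.6, 31.6 and 23.7, and all of these spots were well above background. Nodules gave 15.8, 14.5 and 15.5 without nitrate and 32.5, 31.3 and 38.3 with it. The control nodules lay close together, with a coefficient of variation of 4.38%, while the nitrate-treated roots had the widest spread of any group of the 4 probesets, at 55.3%.

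**Figure D1:**
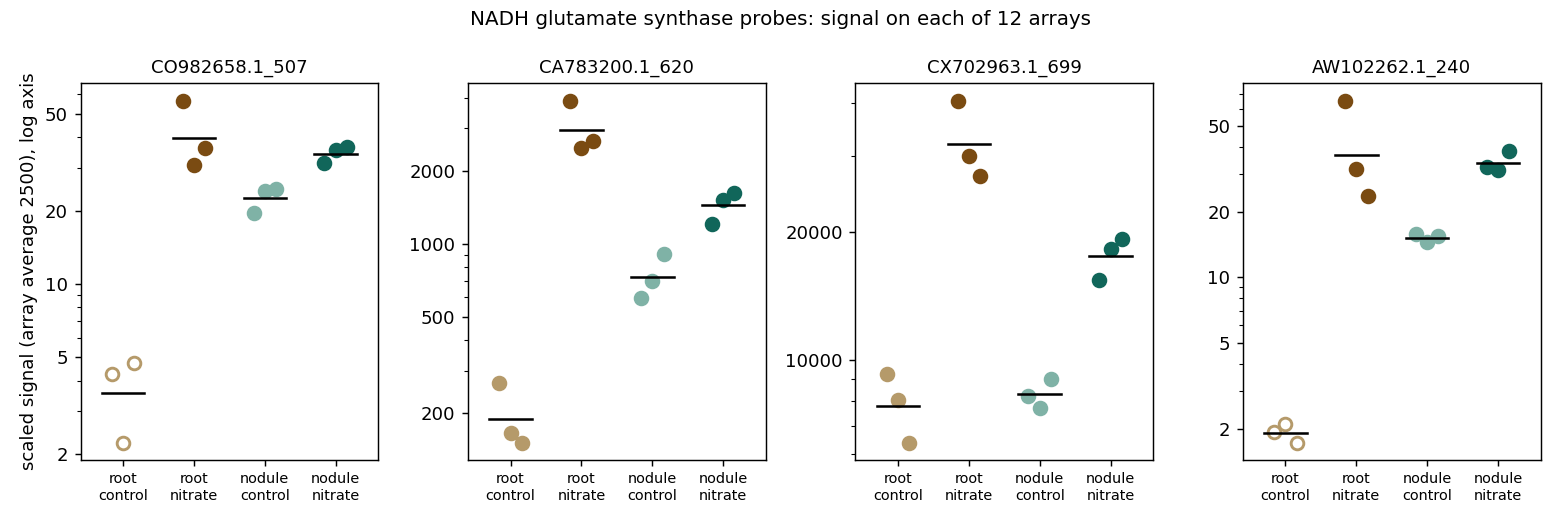
Scaled signal (log axis, each array averaging 2500) of the 4 NADH glutamate synthase probesets, with 1 point per array, 3 arrays per group, and a line at the mean of the log2 values; open points were not well above background. Nitrate-treated arrays lie above all control arrays of the same organ in each panel, and the control roots of CO982658.1_507 and AW102262.1_240 are open points.

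The first comparison asked how nitrate changed these probesets in roots. All 4 were raised by nitrate, with an adjusted p under 0.05 and a change above 2-fold, against 0.851% of all 33951 probesets tested in roots (0.854% by the adjusted p alone). None of the 4 overlapped between control and nitrate-treated roots, and 15.2% of all probesets tested were higher with nitrate without overlap. CO982658.1_507 and AW102262.1_240 entered this fit only because they were well above background in nitrate-treated roots. Only a rise could therefore be called for them, and their part in these counts is not independent evidence. CA783200.1_620 rose 15.6-fold, or 3.96 on the log2 scale (SE 0.30, n = 3 and 3, limma adjusted p = 0.0016). CX702963.1_699 rose 4.10-fold, or 2.04 on the log2 scale (SE 0.25, limma adjusted p = 0.010). For the probesets not well above background in control roots, only a lower bound can be given, in which each control array takes the lowest signal that was marked well above background on it. CO982658.1_507 was at least 4.35-fold higher with nitrate (limma adjusted p = 0.0059) and AW102262.1_240 at least 4.0-fold higher (limma adjusted p = 0.0029). Such a bound is a mean over arrays and can itself fall. With 1 array left out, the log2 bounds were 1.86 to 2.30 for CO982658.1_507 and 1.58 to 2.32 for AW102262.1_240. Both were lowest without nitrate-treated root 1. Here and below, an adjusted p beside a bound tests the fitted values without this floor, not the bound. The lists did not use the root change of AW102262.1_240, but its entry into this fit rested on its nitrate-treated roots. The median of the 4 log2 values, bounds included, was 2.08, and the median of all probesets tested was 0.10. As these are bulk samples, more cells expressing a gene and more RNA per cell cannot be told apart. The 10 root probesets named above came from the lists of changed probesets, so their nitrate directions were partly fixed by that choice. Of these 10, 7 were lowered by nitrate in roots, with an adjusted p under 0.05 and over 2-fold, against 1.70% of all probesets tested. The summed scaled signal of the 10 went from between 21251 and 22555 in control roots to between 8802.8 and 9761.5 with nitrate. Much of it came from the root-specific chalcone synthase probesets, with means of 6441, 1082 and 5101 in control roots and 2321, 391 and 1665 with nitrate. The means of the 2 nodulin probesets, which came from the same lists, moved in opposite directions. Nodulin-21 had a mean scaled signal of 13892 in control roots and 4939 with nitrate, which was not called (limma adjusted p = 0.079). Early nodulin 40, which was higher in roots than in nodules, had means of 1892 and 8519 (limma adjusted p = 0.017). The sum of the 2 was 14898 to 16284 in control roots and 8036 to 17597 with nitrate. The part of these shifts in the root changes was not tested.

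Slide and treatment were partly confounded in roots, since control roots 2 and 3 were on another slide than the nitrate-treated roots. Within the shared slide, where control root 1 was the only control, the log2 differences were 3.46 for CA783200.1_620, 1.79 for CX702963.1_699, at least 2.14 for CO982658.1_507 and at least 2.02 for AW102262.1_240, and no limma adjusted p passed, from 0.052 to 0.12. With the slide as a fixed block the differences were the same, and the adjusted p passed for CA783200.1_620 (0.021) and AW102262.1_240 (0.046) but not for CO982658.1_507 (0.085) or CX702963.1_699 (0.12). The call for CX702963.1_699 was also lost without control root 3 (limma adjusted p = 0.055), nitrate-treated root 1 (0.051) or nitrate-treated root 2 (0.054), with log2 differences from 1.87 to 2.08. With normexp background correction, which adds an offset of 50 to every signal, the root bounds were 0.61 for CO982658.1_507 and 0.66 for AW102262.1_240 on the log2 scale (limma adjusted p = 0.091 and 0.093). When replicate number entered as a block, all 4 calls stood and the share of all probesets raised in roots was 4.22%.

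In nodules the question was the same. All 4 probesets were higher with nitrate on all 3 arrays than on any control array, and each had an adjusted p under 0.05, and 2 of the 4 exceeded 2-fold. Of all 35252 probesets tested, 24.1% were higher with nitrate without overlap, 16.8% were higher with an adjusted p under 0.05, and 3.19% also exceeded 2-fold. AW102262.1_240 rose 2.22-fold, or 1.15 on the log2 scale (SE 0.095, limma adjusted p = 0.0024), and CX702963.1_699 rose 2.11-fold, or 1.08 (SE 0.11, limma adjusted p = 0.0028). CA783200.1_620 changed by 1.98-fold, or 0.98 on the log2 scale (SE 0.18, limma adjusted p = 0.0089), just under the fold limit. CO982658.1_507, whose nodule change was not used by the lists, changed by 1.52-fold, or 0.61 (SE 0.11, limma adjusted p = 0.0090). In the fit of all 12 arrays the adjusted p of CO982658.1_507 did not pass (0.21), and with normexp background correction the log2 change was 0.28. The median of the 4 log2 changes was 1.03, and that of all probesets tested was -0.08. Within the slide that held all control nodules and nitrate-treated nodule 3, the log2 differences were 0.69 for CO982658.1_507, 1.16 for CA783200.1_620, 1.20 for CX702963.1_699 and 1.33 for AW102262.1_240, each with a limma adjusted p under 0.05, the highest being 0.029. CA783200.1_620 then exceeded 2-fold.

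**Figure D2:**
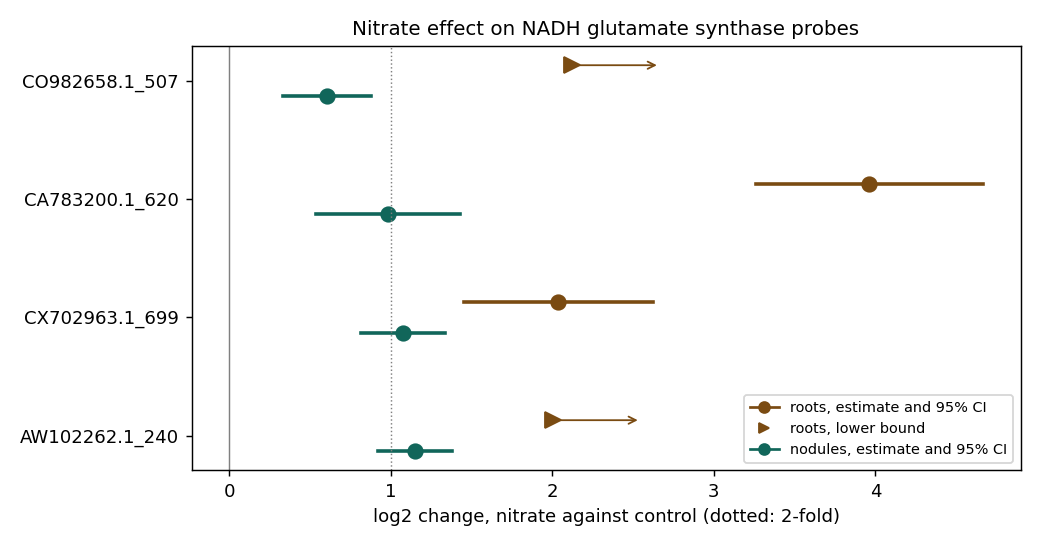
Log2 change with nitrate for each NADH glutamate synthase probeset in roots (brown) and nodules (green), with limma estimates and 95% confidence intervals; triangles with arrows are lower bounds, and the dotted line marks 2-fold. Root values run from at least 2.00 to 3.96, and nodule values from 0.61 to 1.15.

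The difference of the nitrate effect between the organs was tested as an interaction on all 12 arrays. For each of the 4 probesets the effect was larger in roots, with an adjusted p under 0.05, as for 11.8% of all 36425 probesets tested. For 2 of them the difference also exceeded 2-fold, against 9.33%. The root changes of CO982658.1_507, CA783200.1_620 and CX702963.1_699, which are part of this difference, had placed them in the lists. For these probesets the difference is therefore not independent of how they were chosen. The median of the 4 log2 values, of which 2 are lower bounds, was 1.24, and that of all probesets tested was 0.15. The root effect exceeded the nodule effect by 7.88-fold for CA783200.1_620, or 2.98 on the log2 scale (SE 0.37, limma adjusted p = 0.0014), and by at least 2.86-fold for CO982658.1_507 (log2 bound 1.51, limma adjusted p = 0.0026). For AW102262.1_240 the bound was 1.80-fold (0.85 on the log2 scale, limma adjusted p = 0.0020). For CX702963.1_699 the difference was 1.95-fold, or 0.96 on the log2 scale (SE 0.27, limma adjusted p = 0.031). The adjusted p of CX702963.1_699 passed in 9 of 19 alternatives and ran from 0.012 to 0.37, the highest being with the slide as a block, where the log2 difference was 0.59. For AW102262.1_240, the bound fell to 0.43 on the log2 scale without nitrate-treated root 1, its brightest array. The limma adjusted p there, which tests the fitted values and not the bound, was 0.00056.

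Without nitrate, 3 of the 4 probesets were higher in nodules than in roots and did not overlap, which held for 45.6% of the 36145 probesets tested. The same 3 had an adjusted p under 0.05, as did 39.0% of all probesets in this direction. CO982658.1_507 and AW102262.1_240 entered this fit only through the control nodules, so only this direction could be called for them. CA783200.1_620 was 3.85-fold higher in nodules (log2 of root over nodule -1.94, SE 0.28, limma adjusted p = 0.00094). CO982658.1_507 was at least 2.46-fold higher in nodules (limma adjusted p = 0.00036) and AW102262.1_240 at least 1.67-fold (limma adjusted p = 1.3e-05), the latter bound being under the 2-fold limit. Both adjusted p are those of the fitted values, not of the bounds. Calls in this direction, with an adjusted p under 0.05 and over 2-fold, made up 29.9% of the probesets tested. For CX702963.1_699 no difference was detected, with a log2 difference of -0.09, a 95% confidence interval from -0.54 to 0.37 and a limma adjusted p of 0.70. No slide held control roots and control nodules together, so that slide and organ cannot be told apart within these 6 arrays, and a random block for the slide (log2 value -1.87 for CA783200.1_620, bound -1.30 for CO982658.1_507) does not separate them. With the slides as fixed blocks over all 12 arrays, where the nitrate-treated arrays link the organs, the log2 value was -1.94 for CA783200.1_620 (limma adjusted p = 0.0041) and the bound -1.16 for CO982658.1_507 (0.0043). With normexp the bounds were -0.15 for CO982658.1_507 and 0.053 for AW102262.1_240, neither of them past the test (limma adjusted p = 0.16 and 0.44).

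Under nitrate the organs stood in the reverse order for CA783200.1_620, a call that did not hold in every fit given below. CA783200.1_620 was 2.05-fold higher in nitrate-treated roots than in nitrate-treated nodules (log2 difference 1.03, SE 0.21, limma adjusted p = 0.0049), and such calls made up 22.2% of 35654 probesets tested. CX702963.1_699 was 1.83-fold higher in roots (0.87 on the log2 scale, SE 0.19, limma adjusted p = 0.0055), without overlap, as for 37.0% of the probesets tested, but under the 2-fold limit. An adjusted p under 0.05 in this direction was found for 2 of the 4 probesets and for 33.9% of all. The organs overlapped for the other probesets. The log2 difference was 0.21 for CO982658.1_507 (95% confidence interval -0.36 to 0.78, limma adjusted p = 0.44) and 0.11 for AW102262.1_240 (-0.77 to 1.00, limma adjusted p = 0.80), intervals that leave room for differences of up to 1.72-fold and 2.00-fold towards roots. Nitrate-treated roots and nodules shared no slide either, so here too a random block for the slide (1.04 on the log2 scale for CA783200.1_620, estimated correlation -0.154) does not separate slide from organ. With the slides fitted as fixed blocks over all 12 arrays, the difference of CA783200.1_620 was 0.36 on the log2 scale with an adjusted p of 0.47, and the call was lost. In the same fit the difference of CX702963.1_699 was 0.57 with an adjusted p of 0.18. The call for CA783200.1_620 was lost by the fold limit without nitrate-treated root 1 (0.83 on the log2 scale) and without nitrate-treated nodule 1 (0.91).

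The 4 probesets also shared features within groups, and how many of all probesets had the same features was not analysed. Nitrate-treated root 1 was the highest array of its group for all 4, and nitrate-treated nodule 3 was the highest of its group for all 4. Control nodule 3 was the highest of its group for 3 of them. The spread of the signals was wider in roots than in nodules for each probeset under the same solution, with coefficients of variation from 9.63% to 55.3% in roots and from 4.38% to 21.6% in nodules. The control root values of CO982658.1_507 (35.5%) and AW102262.1_240 (9.63%) were not well above background, so their spread is that of signals near background. Over all 12 arrays, which share the 4 groups and the slides, the log2 signals of CO982658.1_507 and AW102262.1_240 had a Pearson r of 0.97, and those of CA783200.1_620 with these were 0.94 and 0.95. CX702963.1_699 was less like CO982658.1_507 (r = 0.71) and AW102262.1_240 (r = 0.76) than like CA783200.1_620 (r = 0.89). These correlations describe the arrays, and for CO982658.1_507 and AW102262.1_240 they include the control root values that were not well above background.

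Differences between probesets on the same array show whether they changed unequally. In roots this could be tested for the pair that was above background in all groups. CA783200.1_620 gained 1.93 on the log2 scale relative to CX702963.1_699, without overlap between nitrate-treated and control arrays. In nodules, CO982658.1_507 gained less than CA783200.1_620, CX702963.1_699 and AW102262.1_240, with relative log2 changes of -0.38, -0.47 and -0.55, each without overlap. Each of these differences had an exact permutation p of 0.1, two-sided, the smallest that 3 against 3 arrays allow, and 0.175 after Benjamini-Hochberg adjustment over the 7 pairs. The other pairs in nodules overlapped, with relative changes of -0.09 for CA783200.1_620 over CX702963.1_699, -0.17 for CA783200.1_620 over AW102262.1_240 and -0.08 for CX702963.1_699 over AW102262.1_240 (exact permutation p from 0.4 to 0.5).

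The genes around glutamate synthase were taken from the same lists of changed probesets, so that their directions were largely fixed by that choice. No probeset described as another glutamate synthase, a glutamate dehydrogenase or an isocitrate dehydrogenase was among them. Of the 37 other probesets of nitrogen and carbon assimilation, 27 were raised and 5 lowered in roots, and 10 were raised and 4 lowered in nodules. The 5 glutamine synthetase probesets, for the enzyme that supplies glutamine to GOGAT, were all raised in roots, by 1.26 to 4.64 on the log2 scale. In nodules none of them was raised, with log2 changes from -0.07 to 0.52, and 1 of the 5 had an adjusted p under 0.05. The nitrate effect on all 5 was larger in roots by the interaction, with log2 differences from 1.03 to 4.71. GMFL01-06-M21-R_347 gave the clearest case, with mean scaled signals of 801 and 19239 in control and nitrate-treated roots while its means were 19355 in control nodules and 18497 after nitrate.

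Asparagine synthetase, which uses the amide of glutamine to make asparagine, had 9 probesets, of which 8 were raised in roots and 8 in nodules, where 1 was lowered. The 3 nitrate reductase and the 3 nitrite reductase probesets, for the enzymes that turn nitrate into ammonium, were raised in roots and none exceeded 2-fold in nodules. The nodule log2 changes of nitrate reductase were 0.36 to 0.42, each with an adjusted p under 0.05 (limma, highest 0.025). Those of nitrite reductase were 0.10 to 0.31, and only GMFL01-08-I05-R_317 had an adjusted p under 0.05 (limma, 0.016). The 2 phosphoenolpyruvate carboxylase probesets, for an enzyme that renews carbon skeletons, were raised in roots and did not exceed 2-fold in nodules. Their nodule log2 changes were 0.32 (limma adjusted p = 0.057) and 0.39 (limma adjusted p = 0.025). Of the 4 asparaginase probesets, for the enzyme that releases ammonium from asparagine, 3 were lowered in each organ. The nodule changes of the NADH glutamate synthase probesets lay between those of glutamine synthetase and of the 8 raised asparagine synthetase probesets. The latter ran from 1.58 to 2.18 on the log2 scale, while the lowered asparagine synthetase probeset changed by -1.61. The glutamine synthetase probesets came only from the list of probesets raised in roots. Most of the raised asparagine synthetase probesets also stood in the list for nodules. This order of ranges was thus partly fixed by the choice of probesets, and it was not tested.

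**Figure D3:**
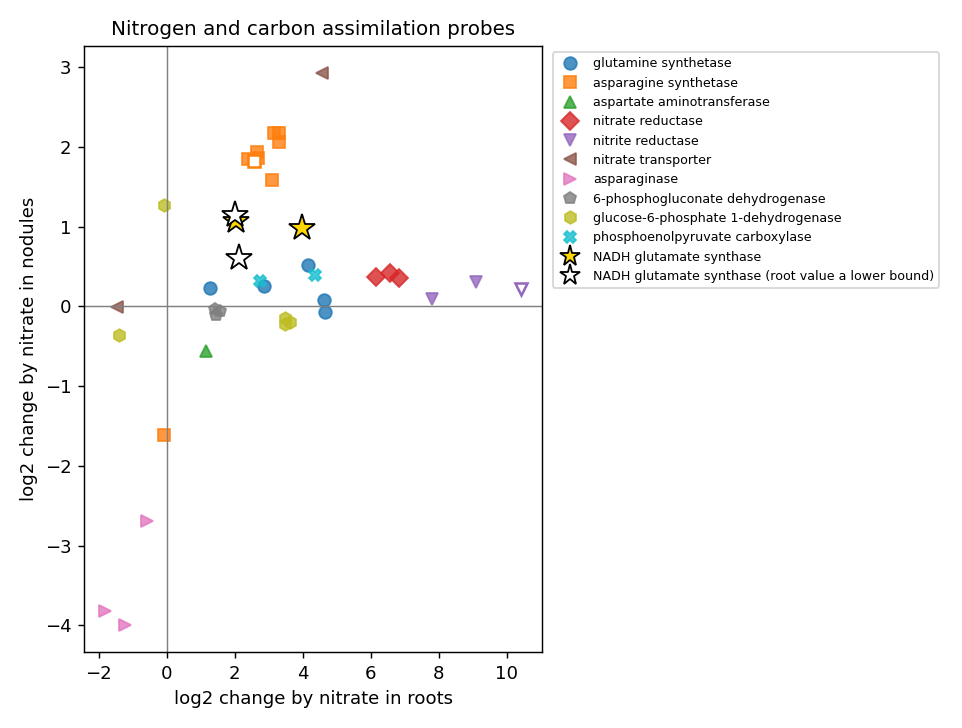
Log2 change with nitrate in roots (horizontal) and nodules (vertical) for the 4 NADH glutamate synthase probesets (stars) and 37 other probesets of nitrogen and carbon assimilation, less 1 asparaginase probeset not tested in nodules; open symbols are fitted values or, for stars, lower bounds of probesets not well above background in at least 1 group. The stars lie at nodule values of 0.61 to 1.15, above the 5 glutamine synthetase probesets at -0.07 to 0.52, which came only from the list of probesets raised in roots.

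The probesets most like each member were found by the Pearson r of the log2 signals over the 12 arrays among 36371 probesets. For CO982658.1_507 and AW102262.1_240 this r includes control root signals that were not well above background. For CO982658.1_507 the first was GMFL01-36-I09-R_352, described as a chloroplast glutamine synthetase precursor, with r = 0.99. Its mean scaled signals were 863 in control roots, 14461 in nitrate-treated roots, 6872 in control nodules and 9862 in nodules under nitrate. It was also the glutamine synthetase probeset whose nodule change had an adjusted p under 0.05 (0.52 on the log2 scale, limma adjusted p = 0.013). The next were BU926597.1_511, described as a membrane protein with a CBS domain, and CV128281.1_592, with r = 0.99 and 0.98.

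For CX702963.1_699 the 3 most alike were all asparagine synthetase probesets, with r = 0.97 for GMFL01-15-F24-R_255, 0.96 for the next and 0.96 for GMFL01-15-J13-R_221. Like CX702963.1_699 itself, GMFL01-15-F24-R_255 had similar means in both control groups, 20035 in roots and 19026 in nodules, against 124300 and 72908 with nitrate in roots and nodules. For CA783200.1_620 they were GMFL01-42-O22-F_460, BF009157.1_153, described as a myb family transcription factor, and GMFL01-08-P22-R_324, each with r = 0.98. For AW102262.1_240 they were GMFL01-37-F03-F_410, described by the mung bean (Vigna radiata) gene arg2, CV128281.1_592 and GMFL01-42-O22-F_460, with r = 0.98, 0.98 and 0.97. Some of these probesets, such as GMFL01-42-O22-F_460, were not well above background in control roots.

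**Figure D4:**
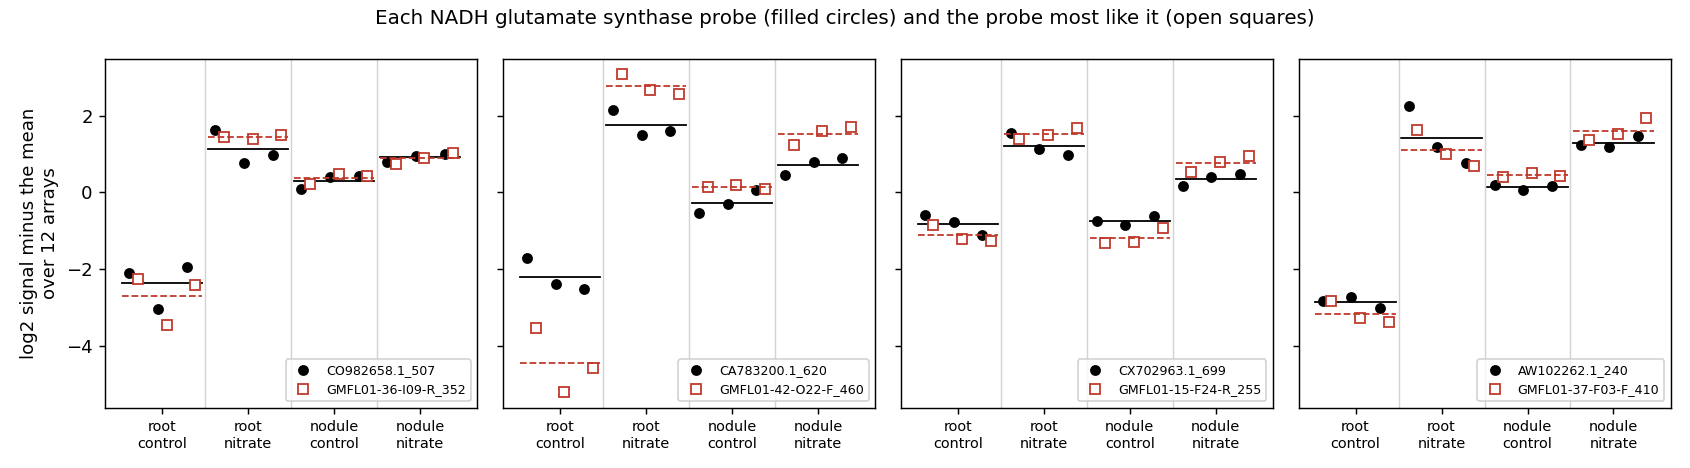
Log2 signal minus its mean over the 12 arrays for each NADH glutamate synthase probeset (filled circles, solid group means) and the probeset most like it (open squares, dashed group means), with 3 arrays per group. CX702963.1_699 and the asparagine synthetase probeset GMFL01-15-F24-R_255 each have similar levels in control roots and control nodules, while the other pairs are lowest in control roots.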

How the data were processed

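RNA of 12 samples was labeled with Cy3 and hybridized to 1-colour arrays of 44165 spots. The authors deposited intensity values, namely the processed signal of each spot after the scanner software's background adjustment, with no scaling between arrays. The labels name Feature Extraction 9.5.1 and the file headers 10.5.1.1. The marks for well above background, outlier and saturated spots, and the scanner's error, are other values the authors deposited per the file headers. The series table's 529980 values equal the scanner's. Groups and replicate numbers came from sample titles; another field of the first control root sample carries the number of the second. The replicates are given as independent experiments.

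Signals were scaled to an average of 2500, as in the study's methods, and taken to log2 after leaving out 106 outlier spots. A probeset entered a fit if every array of some group in that fit had it well above background. Fits used limma 3.58.1 (lmFit and eBayes, R 4.3.3, statmod 1.5.0) on the 6 arrays of the groups compared or on all 12 for the interaction. Calls needed a Benjamini-Hochberg adjusted p under 0.05 over all probesets and a change above 2-fold. For a group not well above background on any array, the bound set each of its arrays to the higher of the probe's own signal and the lowest signal well above background there, and the adjusted p came from the values without this floor. The fits were tested on simulated data. Tables were made in Python 3.11.15 (pandas 2.3.3, numpy 2.4.6), and permutation tests were run with scipy 1.17.1.

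Same-numbered control and nitrate-treated roots deviated together from their group means (r from 0.298 to 0.546 over 3 pairs). With 3 arrays per group this check cannot establish that the numbers pair the root samples, and the labels do not tie them. In nodules r was 0.00675 to 0.117, which does not pair them.

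The members, gene lists and tests were chosen with earlier results of these data known. The named probesets were the 4 members, the 3 most like each, and pathway probesets found by description in the lists of changed probesets, with values for glutamine synthetase and for those a result turns on. Alternatives were 75th percentile scaling, quantile normalization, normexp (offset 50), the series table, no filter, the replicate number or slide as a block, the shared slide alone, all 12 arrays in one fit, the methods' t-test and each array left out. The authors' own fold changes were not used.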

Additional observations from a re-analysis of the deposited data

Results flagged for a closer look

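The nitrate effect differed between roots and nodules for all 4 NADH glutamate synthase probesets by the interaction test on 12 arrays, given here as the root effect minus the nodule effect on the log2 scale. The difference was 2.98 for CA783200.1_620 (limma adjusted p = 0.0014, range over 19 alternatives 2.30 to 3.23). It was at least 1.51 for CO982658.1_507 (limma adjusted p = 0.0026, range 0.34 to 1.70). It was 0.96 for CX702963.1_699 (limma adjusted p = 0.031, range 0.59 to 1.09) and at least 0.85 for AW102262.1_240 (limma adjusted p = 0.0020, range 0.10 to 1.17), both under the 2-fold limit. These differences include the changes by which the probesets were listed. An adjusted p beside a bound is that of the fitted values, not of the bound.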

How the results depend on the processing

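Of 348 values recomputed under the alternatives, 311 kept their direction and their side of the call, 22 lost the call, 9 gained it and 6 changed sign. The 311 include the series table, whose values equal the scanner's and could only repeat the main result. They also include values never called whose adjusted p no longer passed. With normexp, whose offset of 50 exceeds most of the signals of CO982658.1_507 and AW102262.1_240, the root bounds were 0.61 and 0.66 on the log2 scale, the nodule change of AW102262.1_240 was 0.56, the organ bounds without nitrate were -0.15 for CO982658.1_507 and 0.053 for AW102262.1_240, which changed sign, the organ difference of CA783200.1_620 under nitrate was 0.98, and the interaction bound of CO982658.1_507 was 0.34. In roots, calls were lost with the slide as a fixed block for CO982658.1_507 (2.14) and CX702963.1_699 (1.79), within the shared slide for all 4 (2.14, 3.46, 1.79 and 2.02 in the order CO982658.1_507, CA783200.1_620, CX702963.1_699, AW102262.1_240), and with the methods' t-test after adjustment for all 4 (2.17, 3.95, 2.04 and 2.14). Under nitrate, with slides as fixed blocks, the organ difference of CA783200.1_620 was 0.36 and that of CO982658.1_507 -0.14. Without nitrate, that of CX702963.1_699 was 0.083 under 75th percentile scaling. The last 2 are changes of sign around 0 in values that did not pass the test. In nodules, CA783200.1_620 passed 2-fold under 75th percentile scaling (1.04), quantile normalization (1.06), and the slide as a block or within the shared slide (1.16). The shared slide and the left-out arrays leave fewer arrays, and the cause of the other changes was not tested.

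Leaving out 1 array gave 1.87 to 2.16 for CX702963.1_699 in roots, 0.84 to 1.15 for CA783200.1_620 in nodules, 0.83 to 1.16 for its organ difference under nitrate, -0.21 to 0.055 for the organ difference of CX702963.1_699 without nitrate, which turned without control root 3, -0.042 to 0.40 and -0.31 to 0.43 for those of CO982658.1_507 and AW102262.1_240 under nitrate, which turned without nitrate-treated root 1, and 0.79 to 1.09 and 0.43 to 1.17 for the interactions of CX702963.1_699 and AW102262.1_240. With the replicate block, no call of the 4 probesets changed in any comparison, and the root change of CA783200.1_620 was 3.96. The number of all probesets raised in roots depended much on the setting: 289 as reported, 1434 with the replicate block, 1292 with all 12 arrays in one fit, 79 with the slide as a block, 68 within the shared slide, 725 after quantile normalization, 640 after 75th percentile scaling, and 118 to 1120 with 1 root array left out. The methods' t-test raised 896 before and 44 after adjustment. In nodules 1123 were raised and 1914 lowered, against 1367 and 1538 after quantile normalization, and 957 were lowered with normexp. For the interaction 3398 were higher in roots, against 1458 with the slide as a block and 1981 to 6136 with 1 array left out. Scaling by the 75th percentile moved the median log2 of all probesets from -0.29 to -0.12 between the control organs and from 0.15 to 0.02 for the interaction. Signals near background limit CO982658.1_507 and AW102262.1_240 in control roots to bounds.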
